A study of Homo sapiens with 12 samples.

Results

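The HOX cluster genes are the 39 protein-coding genes of the human HOXA, HOXB, HOXC and HOXD clusters, taken by symbol (HOX, a cluster letter and a number) from the 63677 genes of the deposited table. HOXA and HOXB hold 11 and 10 of them, and HOXC and HOXD hold 9 each. Every one of the 39 was matched to an identifier of the table, and 1 of them, HOXB1, had no read in any library.

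HOX genes encode homeodomain transcription factors that set position along the body axis. Within a cluster the genes lie in the order in which they are used: low-numbered, anterior genes at the 3′ end act early and toward the head, and high-numbered, posterior genes at the 5′ end act late and toward the tail, the limb ends and the urogenital tract. Genes with the same number in different clusters are paralogs. HOX proteins bind DNA together with TALE cofactors of the PBX, MEIS and PKNOX families, silent clusters are covered by Polycomb repressors, and Trithorax complexes keep used genes open. In the adult intestine many HOX genes remain in use in epithelial cells, among them HOXB13 in the distal colon.

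Expression was measured in HCT116, an established line grown from a human colorectal carcinoma, as polyA RNA sequenced with a stranded kit. All 12 libraries came from HCT116 cells given doxycycline, which switches on the inducible constructs, at a labelled 1 ug/ul and 48 (no unit is given) before RNA extraction, and they differ by genotype, with 3 libraries each: CR3, a peptide that the submitters describe as perturbing condensates; scramble and reverse, named as variants; and mCherry, the control. The series text speaks of cell clones without saying how many stand for each genotype, so the construct and the clone that carries it cannot be told apart. The p-values rest on the spread between libraries of the same genotype, estimated over all 4 genotypes together. The 3 libraries of a genotype are not stated to be separate cultures. Each library held between 17418218 and 23548417 reads on genes. Of the 13 colorectal epithelial markers looked at, EPCAM, CDH1, KRT8, KRT18, KRT19 and CDX2 passed the low-count filter and were tested. GPA33 passed it too but was set aside for an uncertain value. CEACAM6 had no read, and VIL1, CDX1, LGALS4 and CDH17 were near 0 in every group. CEACAM5 had 4, 7 and 8 reads in CR3 and at most 3 in any other library.

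The results turn on the 5′ end of the HOXD cluster, so the promoters of 3 genes that were nearly silent outside CR3 and of the neighbour that was in use in every group, HOXD8, are shown here. Each runs from 250 bases before to 50 bases after the RefSeq start on the plus strand of chromosome 2 (GRCh38.p14), 5′ to 3′. Capitals mark matches on either strand to 4 short motifs. These are TATAAA, which places the start of transcription in some promoters, then CCAAT, bound by the factor NF-Y, then TTTATNG, bound by posterior HOX and CDX proteins, and lastly TAATTA, a core bound by many homeodomains. A TATAAA match can overlap 1 on the other strand or the posterior HOX motif.
HOXD13, chr2:176092471-176092770: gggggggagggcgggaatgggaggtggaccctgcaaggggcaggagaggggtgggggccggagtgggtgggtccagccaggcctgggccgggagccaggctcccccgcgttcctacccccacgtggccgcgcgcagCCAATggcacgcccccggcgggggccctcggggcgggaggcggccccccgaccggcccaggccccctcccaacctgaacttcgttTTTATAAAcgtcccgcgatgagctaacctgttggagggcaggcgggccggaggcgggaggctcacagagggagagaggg
HOXD11, chr2:176107030-176107329: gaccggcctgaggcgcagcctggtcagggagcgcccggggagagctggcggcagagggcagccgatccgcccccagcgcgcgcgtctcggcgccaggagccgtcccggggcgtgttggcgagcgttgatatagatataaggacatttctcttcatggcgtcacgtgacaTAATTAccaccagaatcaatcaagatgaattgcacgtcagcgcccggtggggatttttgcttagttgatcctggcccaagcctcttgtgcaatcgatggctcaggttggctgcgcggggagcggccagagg
HOXD10, chr2:176116528-176116827: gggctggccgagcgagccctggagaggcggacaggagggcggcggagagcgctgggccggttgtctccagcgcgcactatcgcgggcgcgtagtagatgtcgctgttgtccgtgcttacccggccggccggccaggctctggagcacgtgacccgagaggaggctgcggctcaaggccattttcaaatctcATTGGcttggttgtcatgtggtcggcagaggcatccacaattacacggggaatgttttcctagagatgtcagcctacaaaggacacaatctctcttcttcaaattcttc
HOXD8, chr2:176129455-176129754: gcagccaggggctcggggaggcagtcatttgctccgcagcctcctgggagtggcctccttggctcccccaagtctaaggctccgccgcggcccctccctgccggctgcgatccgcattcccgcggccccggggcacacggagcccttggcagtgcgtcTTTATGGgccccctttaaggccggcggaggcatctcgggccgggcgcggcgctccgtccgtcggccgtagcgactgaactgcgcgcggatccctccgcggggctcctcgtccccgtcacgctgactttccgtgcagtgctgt
HOXD13 holds a TATAAA match and a CCAAT match, HOXD10 a CCAAT match, HOXD11 a TAATTA match and HOXD8 a TTTATNG match. Of the 35116 promoters of this length in the RefSeq table used here, 11.5% hold TATAAA, 34.6% CCAAT, 9.73% TTTATNG and 4.84% TAATTA, so each is a common run of letters. The 4 promoters hold 24, 27, 23 and 34 CpG dinucleotides in the order printed, against a median of 14 over all promoters and of 22 over the 27 promoters of the 20 HOX genes in that table.

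HCT116 used many HOX genes in every group, and HOXA and HOXB genes carried most of the HOX reads. Per kb of exon, the highest over all 12 libraries were HOXB7, a factor studied in proliferation of epithelial tumours, HOXA9, a regulator of blood stem cells and a driver of myeloid leukaemia, then HOXB6, HOXA7 and HOXA10, a gene of uterine development. HOXB7 stood at 446 normalized reads per kb in CR3 and 536 in mCherry, and HOXA9 at 210.2 per kb in CR3 and 260.4 in mCherry; normalized reads are counts scaled by the authors' size factors. Anterior genes differed in level. HOXA2, HOXC4, HOXD1 and HOXD4 had at most 13 reads in any library, while HOXB3 and HOXB4 averaged 156 and 236 normalized reads in mCherry. Outside CR3, every HOXD gene other than HOXD8 and HOXD3 had at most 6 reads in any library.

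**Figure D1:**
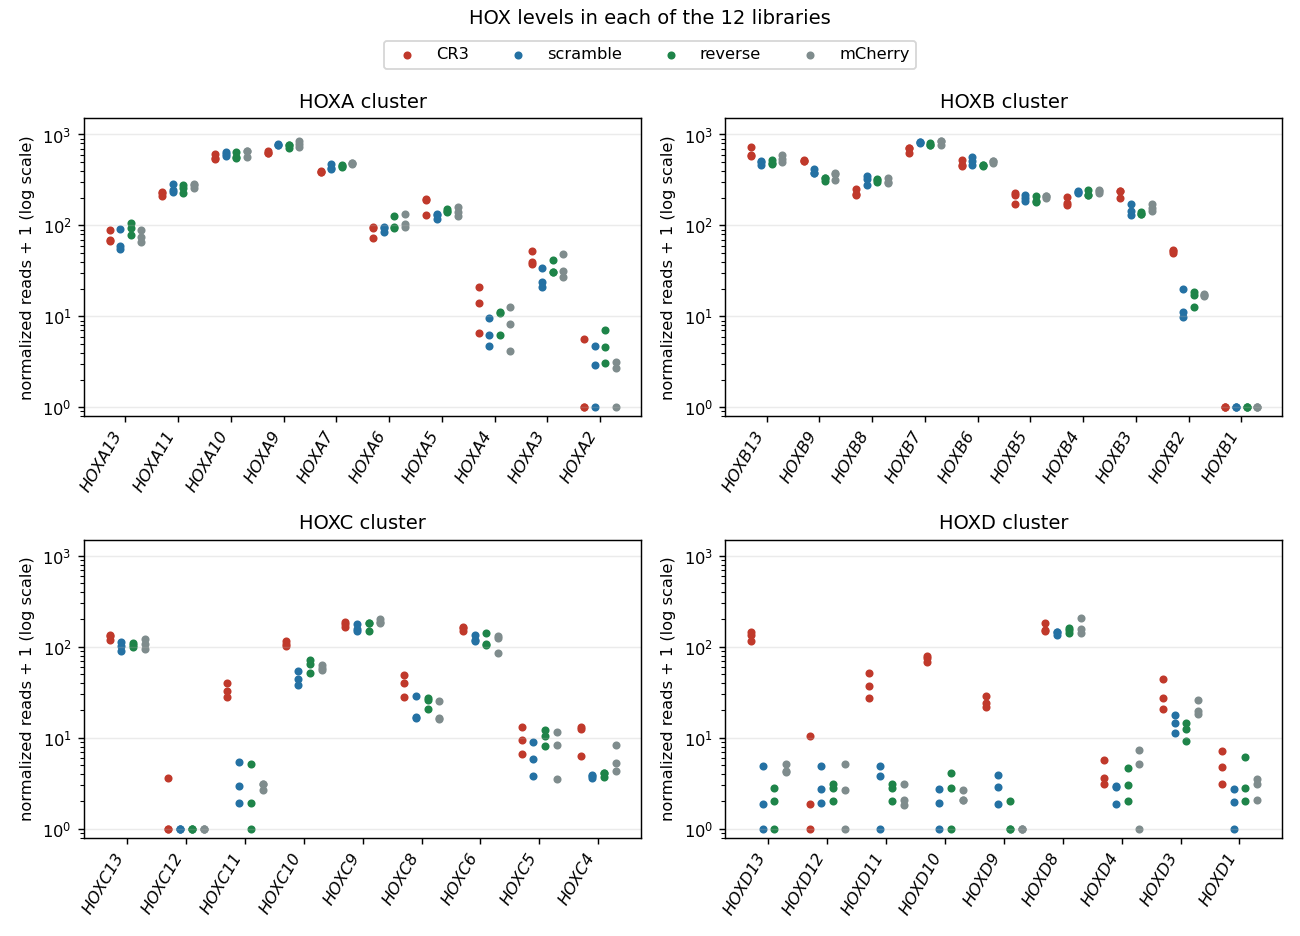
Normalized reads + 1 (log scale) of HOX genes in each of the 12 libraries, 1 panel per cluster, genes ordered from the 5′ (posterior) to the 3′ (anterior) end; every point is 1 library of CR3, scramble, reverse or mCherry. In the HOXD panel the CR3 points of HOXD13, HOXD11, HOXD10 and HOXD9 lie between 21.1 and 145 normalized reads, above all 9 other libraries, while those of HOXD8 overlap them.

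A gene entered the test with at least 10 reads in at least 3 libraries. Of the 39 HOX genes 32 passed; 3 of those (HOXA4, HOXB2 and HOXC5) had a value that could not be rebuilt uniquely and were set aside, and 29 were tested. HOXD13, HOXD11, HOXD10, HOXD9 and HOXC11 passed through the CR3 libraries alone and had to be higher there, so their values are described with no test and counts are given for the other 24. Calls are limma's with a Benjamini-Hochberg adjusted p under 0.05 over all 15508 genes tested.

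The 24 HOX genes in use outside CR3 were split between higher and lower in CR3. Against mCherry 5 were higher and 5 lower, 41.7% called, where 28.4% of all genes tested were called, and 26.0% of the 14841 genes that meet the same read minimum outside CR3. Against scramble 9 were higher and 4 lower, 54.2% called, where 37.7% of all genes tested and 35.5% of those in use outside CR3 were called. Against reverse 6 were higher and 5 lower, 45.8% called, where the shares were 33.5% of all genes tested and 31.2% of those in use outside CR3. In all 3 comparisons with the same sign, HOXB3, HOXB9 and HOXC10 were higher and HOXA9, HOXB4, HOXB7 and HOXB8 lower, or 29.2% of the 24, where 22.0% of all genes tested and 19.4% of those in use outside CR3 met that rule. CR3 libraries lay above all 9 others for 5 of the 24, among them HOXC6, and below them for 5, among them HOXA7, where 13.8% and 13.4% of all genes tested did so. The median log2 fold change of the 24 was 0.17 against scramble, 0.09 against reverse and -0.02 against mCherry, beside 0.01, 0.01 and 0.00 over all genes tested. The 3 comparisons share the CR3 libraries.

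**Figure D2:**
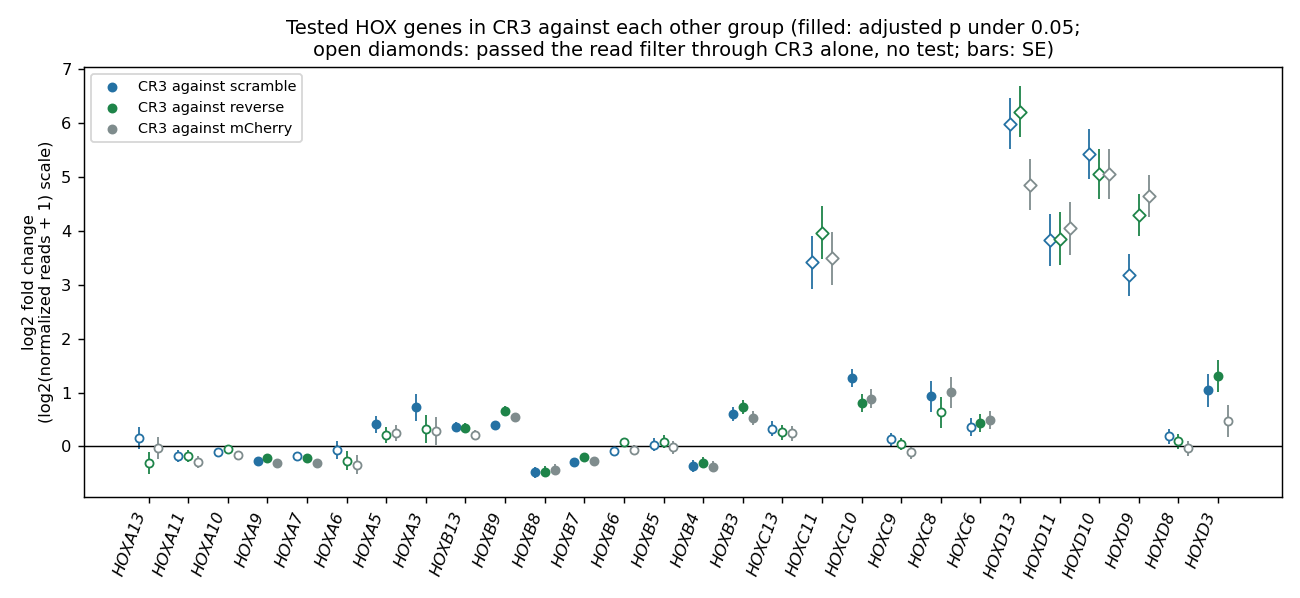
Log2 fold change, on the log2(normalized reads + 1) scale, of tested HOX genes in CR3 against scramble, reverse and mCherry, ordered by cluster and from 5′ to 3′; bars are the SE, filled points have an adjusted p under 0.05 and open diamonds mark genes that passed the read filter through CR3 alone and carry no test. HOXD13, HOXD11, HOXD10, HOXD9 and HOXC11 lie above 3 in all 3 comparisons, and the others between -0.47 and 1.31.

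HOXD13, HOXD11, HOXD10 and HOXD9, at the 5′ end of HOXD, had their highest levels in CR3. HOXD13 had 122, 165 and 127 reads in the CR3 libraries, against 4, 0 and 1 in scramble, 1, 0 and 2 in reverse and 4, 4 and 3 in mCherry. HOXD13 acts at the end of the limb and genital buds, and its mutations cause synpolydactyly. The CR3 libraries lay above all 9 others, and HOXD13 averaged 131 ± 15.7 normalized reads in CR3 and 3.58 ± 0.523 in mCherry (SD, n = 3 each). The fitted log2 fold changes in CR3, given as a description with no test, were 5.98 against scramble, 6.20 against reverse and 4.85 against mCherry. Reverse held 3 HOXD13 reads in all, which puts the ratio of CR3 to reverse at 134 (exact 95% counting interval 45.4 to 650.0; the interval covers counting error alone).

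HOXD10 had 72, 90 and 70 reads in the CR3 libraries, against 0, 1 and 2 in scramble, 0, 3 and 2 in reverse and 1, 2 and 1 in mCherry. HOXD10, which in mice helps to pattern the hindlimb and lumbar motor neurons, was thus close to 0 in every group but CR3. Its fitted log2 fold changes were 5.41 against scramble, 5.05 against reverse and 5.05 against mCherry. Scramble held the fewest HOXD10 reads, 3 in all, for a ratio of CR3 to scramble of 79.8 (counting interval 27.0 to 390.0, with the same limits). HOXD11 had 28, 41 and 48 reads in the CR3 libraries, against 4, 3 and 0 in scramble, 2, 1 and 2 in reverse and 2, 1 and 1 in mCherry. HOXD11, needed in mice for the forearm and, with its paralogs, the kidney, separated the groups in the same way. For HOXD11 the fitted values were 3.82 against scramble, 3.85 against reverse and 4.04 against mCherry. HOXD10 and HOXD11 share 452 bases of exon on 1 strand, which is 16.8% of HOXD10 and 21.4% of HOXD11, so some reads of this pair cannot be assigned to either.

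HOXD9 had 25, 24 and 26 reads in the CR3 libraries, against 3, 2 and 1 in scramble, 1, 0 and 0 in reverse and 0, 0 and 0 in mCherry. HOXD9, the most anterior of the posterior HOXD genes, had no mCherry read, so its level in CR3 was at least 8.13-fold higher than a floor of 3 reads per library. Fitted log2 fold changes of HOXD9 were 3.17 against scramble, 4.29 against reverse and 4.64 against mCherry. HOXD12 lies inside the same stretch but overlapped between the groups: it had 10, 1 and 0 reads in CR3, against 4, 1 and 2 in scramble, 2, 1 and 2 in reverse and 4, 2 and 0 in mCherry, and did not pass the filter. These folds are on the log2(normalized reads + 1) scale, which understates the change of genes near 0.

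The next gene, HOXD8, was in use in every group and was not called. HOXD8 had 183, 154 and 149 normalized reads in the CR3 libraries, against 144, 145 and 134 in scramble, 141, 152 and 159 in reverse and 156, 141 and 205 in mCherry. HOXD8, expressed more widely along the trunk than its 5′ neighbours, had CR3 libraries within the range of the mCherry ones, overlapping those of reverse and above those of scramble. Against scramble, reverse and mCherry its log2 fold changes in CR3 were 0.19, 0.10 and -0.04 (SE 0.14; adjusted p = 0.3, 0.633 and 0.882). On chromosome 2 (GRCh38, GENCODE 29) HOXD13 to HOXD9 span chr2:176092891-176124937, and HOXD8 follows at chr2:176129694-176132695 on the same strand. Summed, HOXD9 to HOXD13 gave 269.9 ± 26.0 normalized reads in CR3, 8.73 ± 4.94 in scramble, 6.19 ± 1.04 in reverse and 8.13 ± 3.12 in mCherry, and HOXD1 to HOXD8 gave 198.7 ± 16.8 in CR3, 156.9 ± 3.38 in scramble, 166.7 ± 10.2 in reverse and 193.1 ± 31.5 in mCherry (SD, n = 3). The split between these 2 sums was drawn with their values known. HOXD3, an anterior gene, had 19.6, 43 and 26.6 normalized reads in CR3, against 13.4, 10.3 and 16.7 in scramble, 11.5, 8.18 and 13.5 in reverse and 18.8, 25.2 and 17.1 in mCherry, and rose against scramble (log2 fold change 1.04, adjusted p = 0.0117) and reverse (1.31, adjusted p = 0.00289) but missed the threshold against mCherry (0.47 ± 0.30 SE, adjusted p = 0.272). The call against scramble was lost without CR3 replicate 2 (0.75, adjusted p = 0.0706), without scramble replicate 2 (adjusted p = 0.0566) and with no read filter (adjusted p = 0.0512). Of HOXD3's exons, 62.2% are shared with another gene of the same strand in GENCODE 29, AC009336.2, and the strand setting of the authors' counting is not given in the sources used here.

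HOXC11, a posterior paralog of HOXD11, was also near 0 outside CR3. HOXC11 had 29, 44 and 30 reads in the CR3 libraries, against 2, 1 and 5 in scramble, 0, 4 and 1 in reverse and 2, 2 and 2 in mCherry. All 3 CR3 libraries lay above the 9 others, which held 0 to 5 reads each. The fitted log2 fold changes of HOXC11, again with no test, were 3.41 against scramble, 3.96 against reverse and 3.49 against mCherry. Its exons overlap no other annotated gene, and neither do those of HOXD13 and HOXD9. HOXC10 had 107, 115 and 102 normalized reads in the CR3 libraries, against 52.8, 37.4 and 43.8 in scramble, 70.8, 51.1 and 63.9 in reverse and 54.3, 62.2 and 57.6 in mCherry. HOXC10, a posterior gene that in mice acts in the hindlimb and lumbar spinal cord, was in use in every group, and its CR3 libraries lay above the 9 others. CR3 differed in HOXC10 by a log2 fold change of 1.27 against scramble, 0.81 against reverse and 0.89 against mCherry (SE 0.17), with adjusted p-values of 2.02e-05, 0.0017 and 0.000923 in that order.

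Further along HOXC, no tested gene was called in all 3 comparisons. HOXC8, a mid-trunk gene, had 27.1, 48.2 and 39.3 normalized reads in CR3, against 15.3, 15.9 and 28.1 in scramble, 25, 26.6 and 19.8 in reverse and 15.7, 15.1 and 24.5 in mCherry; it rose against scramble (0.93, adjusted p = 0.0163) and mCherry (1.01, adjusted p = 0.0137), and gave 0.64 ± 0.29 SE against reverse (adjusted p = 0.099). HOXC6 rose against reverse (0.44, adjusted p = 0.0492) and mCherry (0.49, adjusted p = 0.034) and gave 0.36 ± 0.17 SE against scramble (adjusted p = 0.0964). The calls of both depended on single libraries. HOXC8 lost its call against mCherry without CR3 replicate 2 or 3 or mCherry replicate 1 or 2 (adjusted p up to 0.0692), and its call against scramble without CR3 replicate 2 or 3 or scramble replicate 1 or 2 (adjusted p up to 0.0793); without CR3 replicate 1 it was called against reverse too (adjusted p = 0.0473). HOXC6 lost its call against mCherry without any 1 CR3 library or mCherry replicate 2 (adjusted p up to 0.185), and its call against reverse without any 1 of 8 libraries (adjusted p up to 0.165). HOXC9 and HOXC13 were called in no comparison, with log2 fold changes of -0.11 to 0.13 for HOXC9 and 0.24 to 0.33 for HOXC13, a gene of hair and nail. HOXC12 had 3 reads, all in CR3 replicate 2, and is the 1 HOX gene with reads in CR3 alone. HOXC4, the most anterior HOXC gene, did not pass the read filter and was not tested; it had 13, 13 and 5 reads in CR3, against 3, 3 and 3 in scramble, 3, 3 and 3 in reverse and 7, 4 and 4 in mCherry.

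Summed markers of other cell types and of colorectal epithelium stood apart in the same 3 CR3 libraries, and so beside every HOX difference of CR3. The embryonic kidney line and neuron-like list (18 of 20 markers in the table) summed to 3951 to 4116 normalized reads in CR3, against 2374 to 2492 in scramble, 2488 to 2613 in reverse and 2463 to 2685 in mCherry; of 12 tested, 5 (IRS4, NEFM, INA, UCHL1 and CRMP1) passed the read filter through CR3 alone, and of the other 7, 3 were higher and 2 lower in CR3 against all 3 groups, where 19.4% of all genes in use outside CR3 met that rule. ELAVL4 was at 0 throughout. IRS4, abundant in an embryonic kidney line, averaged 549.8 ± 54.2 in CR3 and 4.7 ± 1.82 in mCherry, and NEFM, a neurofilament, averaged 148 ± 28.7 in CR3 and 0.348 ± 0.603 in mCherry. TUBB2B averaged 245 ± 26.5 in CR3 and 24.2 ± 6.27 in mCherry, and LIN28B 186 ± 13.4 in CR3 and 4.13 ± 1.74 in mCherry. The 2 lower markers were TUBB3 (252 ± 38.4 in CR3 and 335 ± 38.6 in mCherry) and DPYSL3 (957 ± 76 in CR3 and 1171 ± 90 in mCherry). PAX2 and MAP2 were called in no comparison of CR3. The mesenchymal list (18 markers) summed to 3414 to 3786 in CR3, against 1584 to 1652 in scramble, 1575 to 1758 in reverse and 1623 to 1961 in mCherry; of 11 tested, 4 (CDH2, COL5A1, SPARC and ZEB2) passed through CR3 alone, and of the other 7, 4 were higher and 0 lower, among them VIM (764 ± 31.1 in CR3 and 97.4 ± 8.97 in mCherry).

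The blood list (8 markers) summed to 1296 to 1420.0 in CR3, against 9.64 to 14.96 in scramble, 8.995 to 14.3 in reverse and 5.33 to 14.6 in mCherry; nearly all of the CR3 sum was LAPTM5, and PTPRC, the common leukocyte marker, was at 0 in every library. The colorectal epithelial list (13 markers) summed to 45690.0 to 52940.0 in CR3, against 57790.0 to 60940.0 in scramble, 55190.0 to 59240.0 in reverse and 55900.0 to 62820.0 in mCherry. EPCAM, KRT8, KRT18 and KRT19, 4 of the 6 tested, were lower in CR3 against all 3 groups, and none higher. Of all genes in use outside CR3, 19.4% met that rule in either direction. CDH1 and CDX2, the other tested markers, were called in no comparison of CR3. EPCAM averaged 4311 ± 92.4 in CR3 and 5081 ± 319 in mCherry. HOXD9, HOXD10, HOXD11, HOXD13, HOXC11, MEIS1, IRS4, NEFM, VIM and EPCAM stand apart in the same 3 libraries, and the part of these markers in the HOX results was not tested. In bulk RNA, a small share of cells with much HOXD RNA and a little of it in every cell cannot be told apart.

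**Figure D3:**
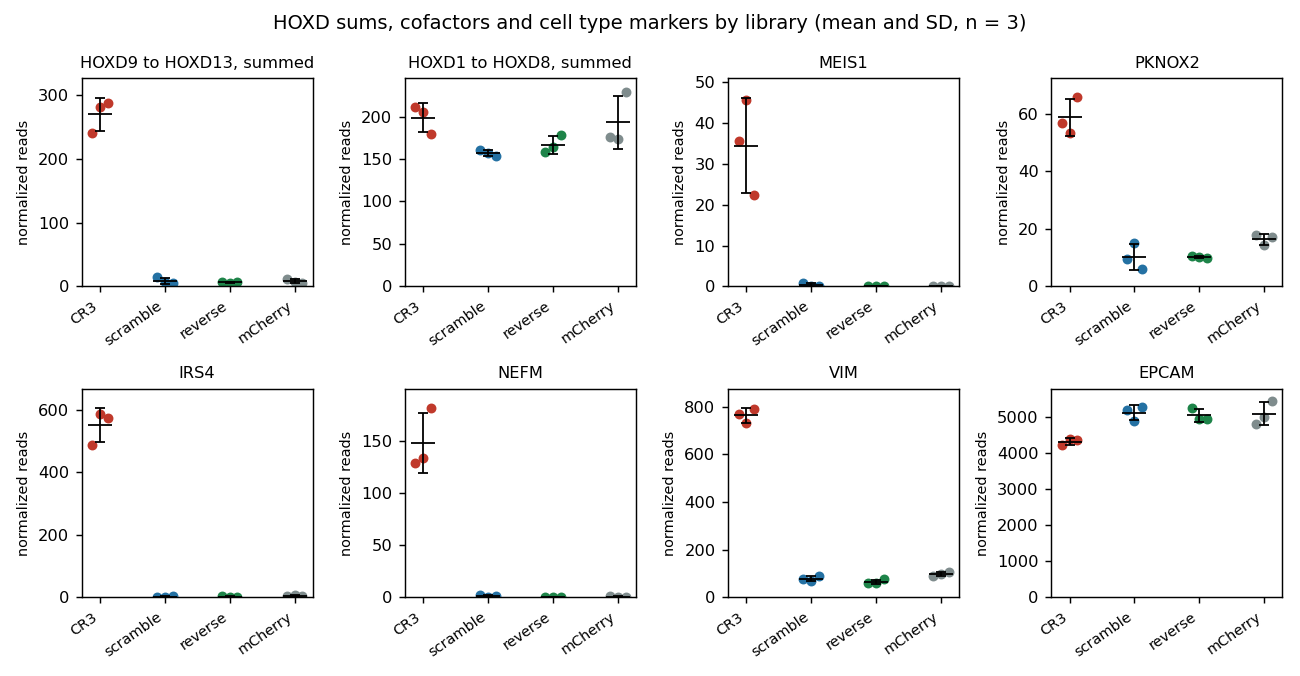
Normalized reads (linear axes from 0) by library for the summed HOXD9 to HOXD13 and HOXD1 to HOXD8 genes, the cofactors MEIS1 and PKNOX2, and the markers IRS4, NEFM, VIM and EPCAM; points are libraries, bars the mean and SD (n = 3 per group). HOXD9 to HOXD13, MEIS1, PKNOX2, IRS4, NEFM and VIM are higher in all 3 CR3 libraries than in the 9 others, and EPCAM is lower there.

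Reads from a run of bases that 2 paralogs share can be assigned to either, so the coding sequences of HOX genes were compared. Over the 741 pairs of HOX genes the longest run of identical bases had a median length of 14. For the 5 genes seen mainly in CR3 the longest run was 40, between HOXB9 and HOXD9. That run lies at the start of the homeobox, the part that encodes the DNA-binding homeodomain, and is shown since both genes had their highest reads in CR3; it is given 5′ to 3′ on the coding strand from GENCODE 29 transcripts, in lower case throughout.
HOXB9 and HOXD9: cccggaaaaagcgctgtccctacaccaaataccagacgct
HOXB9 was in use in all 4 groups, and HOXD9 stood at 0 to 3 reads in the 9 libraries outside CR3; how reads of this run were assigned was not tested. Within the longest coding sequence of each gene, HOXD13, HOXD11, HOXD10 and HOXC11 shared no run above 26 bases with any HOX gene. The other exon bases were not compared, and HOXD10 and HOXD11 overlap by 452 exon bases, as given above.

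**Figure D4:**
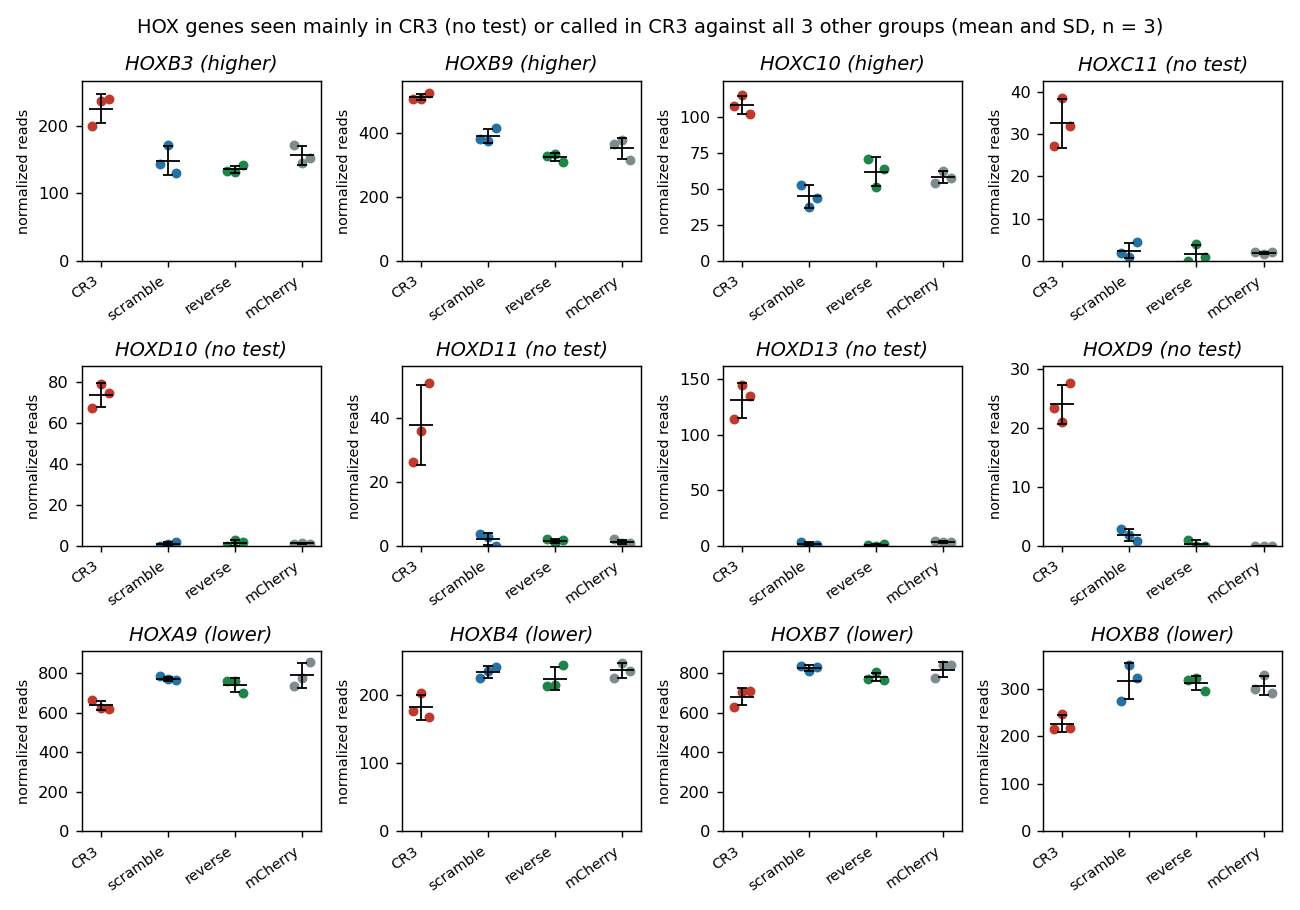
Normalized reads (linear axis from 0) of 12 HOX genes, 5 seen mainly in CR3 and described with no test and 7 called with the same sign in CR3 against all 3 other groups, 1 panel per gene; points are libraries, bars the mean and SD (n = 3). HOXD9, HOXD10, HOXD11, HOXD13 and HOXC11 are close to 0 outside CR3, while HOXB3, HOXB9 and HOXC10 are higher, and HOXA9, HOXB4, HOXB7 and HOXB8 lower, in CR3 with all groups well above 0.

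HOXB held genes that rose and genes that fell. HOXB9 had 507, 506 and 525 normalized reads in the CR3 libraries, against 379.8, 374 and 415 in scramble, 329, 334 and 309 in reverse and 364, 378 and 316 in mCherry. HOXB9, the posterior HOXB gene next to the gap before HOXB13, had its 3 CR3 libraries above all 9 others. Against scramble, reverse and mCherry, the log2 fold changes of HOXB9 in CR3 were 0.40, 0.66 and 0.54 (SE 0.08; adjusted p = 0.00114, 9.22e-06 and 8.90e-05). HOXB3 had 199.9, 237 and 239 normalized reads in the CR3 libraries, against 143, 172 and 129.7 in scramble, 133, 132 and 141 in reverse and 171, 145 and 153 in mCherry. HOXB3, an anterior gene of the hindbrain and of blood progenitors, also separated without overlap. For HOXB3, limma gave log2 fold changes in CR3 of 0.61 against scramble (adjusted p = 0.0012), 0.72 against reverse (adjusted p = 0.000288) and 0.53 against mCherry (adjusted p = 0.00499), each with an SE of 0.13.

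HOXB13, the posterior gene of distal colon and prostate, had 726, 576 and 592 normalized reads in CR3, against 456, 511 and 499.7 in scramble, 483, 471 and 528 in reverse and 588, 543 and 500.4 in mCherry. It rose against scramble (log2 fold change 0.36, adjusted p = 0.00484) and reverse (0.35, adjusted p = 0.00744), and gave 0.21 ± 0.09 SE against mCherry (adjusted p = 0.1). HOXB2, a hindbrain gene, was set aside because 1 scramble value reads as 20 or as 2. It had 55, 55 and 50 reads in CR3, against 20 (or 2), 11 and 10 in scramble, 17, 16 and 13 in reverse and 15, 20 and 15 in mCherry, so CR3 stood above the others under either reading. With the likelier value kept, its log2 fold changes were 1.99 against scramble, 1.69 against reverse and 1.60 against mCherry (adjusted p = 2.2e-05, 0.000134 and 0.000285).

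HOXB8, HOXB7 and HOXB4 were lower in CR3, between the risen HOXB9 and HOXB3. HOXB6 and HOXB5 lie between these too and were called in no comparison. HOXB4 shares 17.1% of its exon bases with other genes of the same strand, HOXB3 among them. HOXB3 shares 7.9% with HOXB4 and HOXB6, so some reads of these genes cannot be assigned to 1 of them. HOXB8 had 215, 247 and 218 normalized reads in the CR3 libraries, against 275, 349.6 and 324 in scramble, 319, 323 and 296 in reverse and 299, 329.7 and 291 in mCherry. HOXB8 can hold myeloid progenitors in an undifferentiated state. On the log2 scale HOXB8 changed in CR3 by -0.47 against scramble, by -0.46 against reverse and by -0.43 against mCherry (SE 0.10), at adjusted p-values of 0.00147, 0.00202 and 0.00396. HOXB7 had 629.7, 704 and 709 normalized reads in the CR3 libraries, against 835, 809.6 and 832 in scramble, 769, 806 and 767 in reverse and 775, 840.3 and 839.6 in mCherry. CR3 differed in HOXB7 by a log2 fold change of -0.28 against scramble, -0.20 against reverse and -0.27 against mCherry (SE 0.06), with adjusted p-values of 0.00179, 0.0201 and 0.00364 in that order. The HOXB8 and HOXB7 libraries of CR3 lay below all 9 others.

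HOXB4 had 177, 203 and 167 normalized reads in the CR3 libraries, against 224, 235 and 241 in scramble, 214, 215 and 244 in reverse and 225, 247 and 236 in mCherry. HOXB4 promotes the self-renewal of blood stem cells. Against scramble, reverse and mCherry, the log2 fold changes of HOXB4 in CR3 were -0.36, -0.30 and -0.38 (SE 0.10; adjusted p = 0.011, 0.0341 and 0.0114). HOXA9 had 665, 625 and 621 normalized reads in the CR3 libraries, against 784, 768 and 764 in scramble, 760.3, 761 and 702 in reverse and 733, 777 and 856 in mCherry. For HOXA9, limma gave log2 fold changes in CR3 of -0.28 against scramble (adjusted p = 0.00296), -0.22 against reverse (adjusted p = 0.0169) and -0.31 against mCherry (adjusted p = 0.00199), each with an SE of 0.07. Both genes were below the 9 other libraries in all 3 CR3 libraries.

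HOXA7, an abundant neighbour, had 398, 387 and 382 normalized reads in CR3, against 415, 470.2 and 429 in scramble, 460.4, 453 and 435 in reverse and 472, 489.5 and 482 in mCherry. It fell against reverse by 0.21 (adjusted p = 0.0312) and mCherry by 0.31 (adjusted p = 0.00339) on the log2 scale, and gave -0.17 ± 0.07 SE against scramble (adjusted p = 0.0693). The call of HOXA7 against reverse was lost without CR3 replicate 2 or 3 or reverse replicate 1 or 2 (adjusted p up to 0.0922). These decreases are small, and with library totals in place of the deposited size factors, which moves the median of all genes by 0.09 to 0.10, HOXA7, HOXA9, HOXB4 and HOXB7 gave -0.12, -0.13, -0.21 and -0.11 against reverse and missed the threshold (adjusted p = 0.201, 0.131, 0.121 and 0.178). HOXB8 then was the 1 gene still lower in all 3 comparisons. Without CR3 replicate 1, CR3 replicate 3 or reverse replicate 2, 2 of the 4 genes were lower in all 3; HOXB4 lost all 3 calls without CR3 replicate 3 (adjusted p = 0.0562 against scramble, 0.132 against reverse and 0.0603 against mCherry).

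HOXA10 and HOXB6, both abundant, were called in no comparison. HOXA10 had 535, 605 and 553 normalized reads in CR3, against 638, 578 and 608 in scramble, 569, 552 and 638 in reverse and 660.1, 571 and 665 in mCherry, with log2 fold changes of -0.11, -0.05 and -0.16 against scramble, reverse and mCherry (SE 0.08; adjusted p = 0.315, 0.649 and 0.151). HOXB6 likewise had 465, 454 and 528 in CR3, against 462, 560.0 and 504 in scramble, 446, 463 and 462 in reverse and 513, 504 and 488 in mCherry, with log2 fold changes of -0.08, 0.07 and -0.06 (SE 0.08; adjusted p = 0.506, 0.511 and 0.642). HOXA3 and HOXA5, on the anterior side, were called against scramble alone (log2 fold changes 0.72 and 0.41, adjusted p = 0.0343 and 0.0432); against reverse and mCherry they gave 0.22 to 0.33, short of the threshold. HOXA3 lost that call without CR3 replicate 1 or 3 or scramble replicate 1 or 3 (adjusted p = 0.0539 to 0.143), and HOXA5 lost it without any 1 of 9 libraries (adjusted p = 0.0514 to 0.184, the highest without CR3 replicate 3). Without CR3 replicate 1, HOXA5 was called against reverse and mCherry as well (adjusted p = 0.0317 and 0.0249). HOXA6, HOXA11, HOXA13 and HOXB5 were called in no comparison. HOXA4 and HOXC5, set aside for an uncertain value, overlapped between CR3 and each other group.

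By cluster, the sum of HOXD genes averaged 468.6 ± 17.8 normalized reads in CR3, against 165.6 ± 8.13 in scramble, 172.9 ± 10.96 in reverse and 201.2 ± 29.3 in mCherry. HOXC averaged 658.6 ± 22.7 in CR3, against 458.9 ± 15.5 in scramble, 492.6 ± 44.7 in reverse and 501.1 ± 46.7 in mCherry. HOXA averaged 2353 ± 40.8 in CR3, against 2502 ± 14.7 in scramble, 2537 ± 38.4 in reverse and 2670.0 ± 50.2 in mCherry. HOXB averaged 3197 ± 50.01 in CR3, against 3122 ± 114 in scramble, 2935 ± 39.2 in reverse and 3137 ± 82.1 in mCherry (SD, n = 3). HOXD thus made up 7.02% of HOX reads in CR3 and 3.09% in mCherry, and HOXA 35.2% in CR3 and 41.0% in mCherry. These sums weigh abundant genes most and are given without a test.

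No HOX gene was called between scramble, reverse and mCherry. None of the 29 tested genes passed limma's adjusted threshold in scramble against mCherry, reverse against mCherry or reverse against scramble, where 1.55%, 0.677% and 0.49% of all genes tested did. At an unadjusted limma p under 0.05 the counts were 3, 2 and 4 of 29, and 1, 1 and 3 of the 24 in use outside CR3. The share of all genes at that unadjusted threshold is not given here, so nothing is read from these counts. With a pseudocount of 0.25, HOXD9 was called higher in scramble than in mCherry (log2 fold change 2.97, adjusted p = 0.0249), on 3, 2 and 1 scramble reads against 0 in mCherry.

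Of the genes around and with HOX, the noncoding genes inside the clusters moved in part. Of 21 listed, 10 were tested. HOXA-AS2 and HOXC-AS2 passed the read filter only with CR3 libraries counted beside libraries of other groups. HOXA-AS2 had 15, 9 and 8 reads in CR3 and 21, 8 and 7 in scramble. It had 4, 6 and 4 in reverse and 12, 8 and 5 in mCherry. Of the other 8, HOTAIRM1, HOXA-AS3 and HAGLR were higher and HOXA10-AS lower in CR3 against all 3 groups, where 19.4% of all genes in use outside CR3 met that rule. HAGLR, transcribed from the 3′ end of HOXD opposite to HOXD1, had 61, 71 and 69 reads in CR3, against 20, 23 and 32 in scramble, 31, 26 and 35 in reverse and 22, 25 and 19 in mCherry, with log2 fold changes of 1.46 against scramble, 1.06 against reverse and 1.53 against mCherry (SE 0.20; adjusted p = 2.59e-05, 0.000625 and 1.97e-05). HOTAIRM1, of the HOXA cluster, averaged 109 ± 17.4 normalized reads in CR3 and 51.1 ± 2.25 in mCherry, with log2 fold changes of 1.45 against scramble, 1.20 against reverse and 1.07 against mCherry (SE 0.19; adjusted p = 1.22e-05, 9.83e-05 and 0.000374). HOXA10-AS gave -0.61 against scramble, -0.43 against reverse and -0.44 against mCherry (SE 0.13; adjusted p = 0.00147, 0.0199 and 0.02). HOTAIR, the HOXC transcript next to HOXC11 reported to silence HOXD genes in other human cells, had 19, 51 and 31 reads in CR3, against 1, 3 and 1 in scramble, 5, 1 and 3 in reverse and 1, 4 and 7 in mCherry, and was set aside for an uncertain value. HOXC-AS2 had 16, 17 and 8 reads in CR3, against 8, 6 and 6 in scramble, 4, 5 and 15 in reverse and 4, 8 and 4 in mCherry.

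Of the 9 TALE cofactors, all tested, MEIS1 passed the read filter through CR3 alone, and of the other 8, PKNOX2 and MEIS3 were higher in CR3 against all 3 groups and none lower, where 19.4% of all genes in use outside CR3 met that rule. MEIS1, which binds DNA together with HOX proteins, was all but absent outside CR3. It had 38, 52 and 21 reads in CR3, 1, 0 and 0 in scramble, and 0 in each reverse and mCherry library. Its fitted log2 fold changes, given with no test, were 4.77 against scramble, 5.09 against reverse and 5.09 against mCherry, and near 0 such values depend on the added 1 read. PKNOX2 had 61, 61 and 62 reads in CR3, against 10, 16 and 7 in scramble, 10, 10 and 11 in reverse and 17, 17 and 16 in mCherry, with log2 fold changes of 2.48 against scramble, 2.41 against reverse and 1.78 against mCherry (SE 0.27; adjusted p = 1.47e-06, 2.30e-06 and 7.75e-05). MEIS3 averaged 1243 ± 116 normalized reads in CR3 and 1007 ± 118 in mCherry, with log2 fold changes of 0.57 against scramble, 0.47 against reverse and 0.31 against mCherry (SE 0.08; adjusted p = 3.80e-05, 0.000311 and 0.01). PKNOX1 gave 0.09, 0.11 and 0.09 against scramble, reverse and mCherry and was not called (adjusted p = 0.366, 0.281 and 0.386). PBX2, PBX3 and PBX4 were called in no comparison of CR3.

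CDX2, the intestinal homeobox gene that acts upstream of HOX genes in the gut, averaged 341 ± 39.1 normalized reads in CR3 and 314 ± 30.4 in mCherry and was not called (log2 fold change 0.12, adjusted p = 0.486); PDX1 was not called either. Of 29 Polycomb genes tested, EZH1 was higher and EZH2 and PHF19 lower in CR3 against all 3 groups, a smaller share than the 19.4% of all genes in use outside CR3. EZH2, the main methyltransferase of Polycomb repressive complex 2, averaged 1394 ± 86.8 normalized reads in CR3 and 1679 ± 144 in mCherry, with log2 fold changes of -0.39 against scramble, -0.35 against reverse and -0.27 against mCherry (SE 0.07; adjusted p = 0.000242, 0.000697 and 0.00667). PHF19, which helps recruit that complex, averaged 894 ± 27 in CR3 and 1156 ± 41 in mCherry, with log2 fold changes of -0.62 against scramble, -0.44 against reverse and -0.37 against mCherry (SE 0.05; adjusted p = 9.45e-08, 5.57e-06 and 4.17e-05). EZH1, the paralog of EZH2, gave 0.28 against scramble, 0.21 against reverse and 0.25 against mCherry (SE 0.07; adjusted p = 0.00533, 0.0304 and 0.0139). PHC2 fell against scramble and mCherry by 0.22 and 0.27 and missed the threshold against reverse (adjusted p = 0.0539). Of 21 Trithorax, COMPASS and DOT1L complex genes tested, none was higher in all 3 comparisons, and PSIP1 and MLLT10 were lower by 0.16 to 0.33, again a smaller share than that 19.4%; CXXC1 fell against scramble and reverse, and AFF4 rose against scramble and mCherry. The median log2 fold changes of both lists lay between -0.07 and 0.04, beside 0.00 to 0.01 over all genes tested.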

How the data were processed

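PolyA RNA of HCT116 cells was sequenced in 12 libraries, 3 each of CR3, scramble, reverse and mCherry, grouped by title. Trim Galore, STAR, featureCounts and DESeq2, among other tools, were used with GRCh38, per the submitters' processing notes. Not given in the sources used here are versions, the strand setting and the annotation release. The deposited values were handled as a score: per the values, they are gene read counts divided by a size factor per library, with the decimal mark lost from values of 1 or more.

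The value of 1 read was found per library, every non-zero cell (265152) came out whole in that unit after shifting the mark (tolerance 1e-06), and the shift was chosen per gene by likelihood over the libraries, using the group labels. Cells with another shift within a likelihood ratio of 20 (1805, or 0.681%) were called ambiguous and the 669 genes concerned left out. With the mark hidden, 98.04% of the 18138 cells that kept it were read correctly. All of these cells hold 1 read, so this check does not cover higher counts. In a simulated table, 99.844% of 264604 non-zero cells were rebuilt correctly. That simulation used the spread between libraries that the rebuilding itself assumes.

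limma 3.58.1 (R 4.3.3), with a mean-variance trend, was fitted to log2(normalized reads + 1) over all 4 groups and 15508 genes with at least 10 reads in at least 3 libraries, two-sided, Benjamini-Hochberg adjusted, called under 0.05. Libraries of a group differed beyond counting noise (chi-square per degree of freedom 2.73 to 9.75), so each counted as 1 sample. Rebuilding and limma were tested on simulated data. Symbols, coordinates and coding sequences came from GENCODE 29, and promoters from RefSeq. Described in full were HOX genes called in CR3 against all 3 groups or between the other groups, the 5 highest per kb, those with reads in CR3 alone, and up to 4 genes per other list by p against mCherry. The members and the lists were chosen with earlier results of these data known. Results of a few genes and 1 sequence are not reported here.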

Additional observations from a re-analysis of the deposited data

How the results depend on the processing

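Of the 34 calls in CR3 of HOX genes in use outside CR3, none changed sign under any alternative. The calls kept numbered 29 to 34 of 34 under other pseudocounts (0.25 and 5), no read filter, other scaling, the ambiguous genes kept or 2 groups per fit, and 23 to 34 of 34 with 1 library left out. HOXC10, HOXB3, HOXB9 and HOXB8 kept all their CR3 calls in those fits.

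With at least 10 reads on average in the 9 other libraries as the filter, the genes present mainly in CR3 drop out by construction, and 5 HOX genes were higher against mCherry, 9 against scramble, 6 against reverse and 3 against all 3 groups. The genes lower against reverse numbered 1 under library totals and 3 under upper quartile scaling or with 2 groups per fit, and those lower against all 3 groups 1 under library totals. Under library totals the CR3 over mCherry ratio of the summed HOXA cluster was 0.937 (0.881 with the deposited size factors), and that of HOXB 1.08 (1.02). With a pseudocount of 0.25, 1 gene, HOXD9, was higher in scramble than in mCherry.

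With 1 library left out, the genes tested were held as in the fit of 12 libraries, a choice made after seeing the data. When the filter was recomputed without a CR3 library, the 5 genes seen mainly in CR3 could not pass it (without CR3 replicate 1, 8 genes were then higher against scramble and 7 against reverse). Higher genes are counted here with the filter recomputed, and so without those 5. They numbered 5, 5 and 3 against mCherry without CR3 replicate 1, 2 and 3, and 8, 6 and 6 against scramble. Over both ways, genes lower in CR3 numbered 2 to 5 against reverse and 2 to 4 against all 3 groups. The lowest counts of lower genes came without CR3 replicate 3 or reverse replicate 2 (2 each against reverse, as without CR3 replicate 1 with the filter recomputed), and without CR3 replicate 1, CR3 replicate 3 or reverse replicate 2 (2 each against all 3 groups).

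Replicate numbers do not pair the libraries: same-numbered deviations correlated at -0.126 to 0.063. With the replicate number as a block, 32 of the 34 calls were kept, and HOXA5 against scramble (adjusted p = 0.0537) and HOXC6 against reverse (adjusted p = 0.0508) were lost. HOXD12, HOXD1, HOXD4, HOXA2 and HOXC4, with few reads per library, did not pass the read filter and were not tested.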
